A study of Homo sapiens with 10 samples.

Results

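Genes of the epithelial cell-cell junction were followed in OVCAR-3 cells, a long-established line from a human ovarian adenocarcinoma. The set holds 9 genes, taken by symbol from the deposited table: the claudins CLDN3, CLDN4 and CLDN7, OCLN, TJP1, F11R, CDH1, EPCAM and RAB25. All 9 were among the 58222 genes of the table. The set was chosen with earlier results of these data known. Levels are in TPM, an abundance corrected for transcript length and scaled to a fixed sum in each library, so that genes can be compared with each other. Total RNA was sequenced from 10 cultures, 2 biological replicates in each of 5 groups. Control cells were kept in standard culture. Day1 cells were held for 24 hours in silica gel, a porous glass that traps living cells in place, and Day3 cells for 3 days. Extracted cells came out of the gel after 3 days and were grown for a further 2 weeks. Treated cells never entered the gel: they were exposed for 24 hours to 0.5 uM cisplatin, a drug that crosslinks DNA, and were then grown for 2 weeks. Extracted and Treated cultures therefore descend from the cells that survived. All groups come from 1 cell line, grown in RPMI medium with fetal bovine serum.

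Neighbouring epithelial cells are sealed to each other by tight junctions and held together by adherens junctions. In the tight junction, claudins and occludin span the membrane and set what passes between cells, JAM proteins such as the F11R product join them, and the scaffold ZO-1, encoded by TJP1, ties them to actin. In the adherens junction, E-cadherin, encoded by CDH1, binds its copy on the next cell and is anchored inside the cell by catenins. EPCAM is an adhesion molecule that binds claudin-7, and RAB25 is a small GTPase of the RAB11 group that returns proteins to the surface of epithelial cells. Ovarian carcinomas are known for high CLDN3, CLDN4 and EPCAM and for keeping CDH1.

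The table gives no read counts, and sequencing depth is therefore unknown. Between 13896 and 14173 genes per library reached 1 TPM, and replicates correlated across genes at 0.983 to 0.991. Mitochondrial mRNAs held 15.8% to 16.7% of the TPM of Control libraries, 2.29% to 3.92% in Day1, 5.97% to 7.61% in Day3 and 10.4% to 11.1% in both survivor groups, and small-RNA genes held 14.7% in Treated replicate 2. TPM are shares of a fixed sum, and the part of these classes in the results was tested only by rescaling without them. The median of all 15167 tested genes lay at 0.12 in Day1 and -0.15 in Treated on the log2 scale. All 8 ovarian carcinoma markers and all 6 markers of simple epithelium reached 1 TPM. Of the markers of other cells, 2 of 8 for fibroblasts (COL1A1 and COL1A2), 2 of 6 for leukocytes (CD68 and CD14) and 1 of 5 for endothelium (VWF) reached 1 TPM in any library, and 2 of 3 erythroid markers were listed at 0 in every library. The summed fibroblast markers ranged from 12.8 to 14.6 TPM in Control, 9.48 to 9.52 in Day1, 10.5 to 11.3 in Day3, 7.27 to 8.17 in Extracted and 10.3 to 15.4 in Treated. The summed leukocyte markers were 7.74 to 9.05 TPM in Treated and 2.54 to 6.04 in the other 8 libraries, and the endothelial markers 2.58 to 2.79 in Treated and 1.33 to 2.15 elsewhere. The part of these markers in the results was not tested.

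All 9 junction genes were expressed in every library, the lowest value being 21.8 TPM for OCLN in a Treated culture. In Control, EPCAM was the most abundant at 348 ± 1.83 TPM (SD, n = 2 here and below), followed by RAB25 at 137 ± 3.19, CLDN7 at 125 ± 8.63 and F11R at 101 ± 2.66. CDH1, CLDN3 and CLDN4 came next at 93.1 ± 3.82, 83.4 ± 17.5 and 80.9 ± 7.29, and the replicates of neighbours in this trio overlapped. TJP1 at 66.7 ± 2.56 and OCLN at 32.2 ± 1.59 were lowest. EPCAM stood first and OCLN last in all 5 groups, while CLDN4 moved from the seventh place in Control to the third in Day1 and Day3. The order of CLDN4, CLDN3, CLDN7 and F11R in Day3 was not resolved, because each overlapped its neighbour. The summed level of the 9 genes was 1039 and 1097 TPM in Control, 1499 and 1490.0 in Day1, 1334 and 1369 in Day3, 1027 and 1048 in Extracted, and in Treated 1181 and 1035. Every gel library lay above every other library in this sum.

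**Figure D1:**
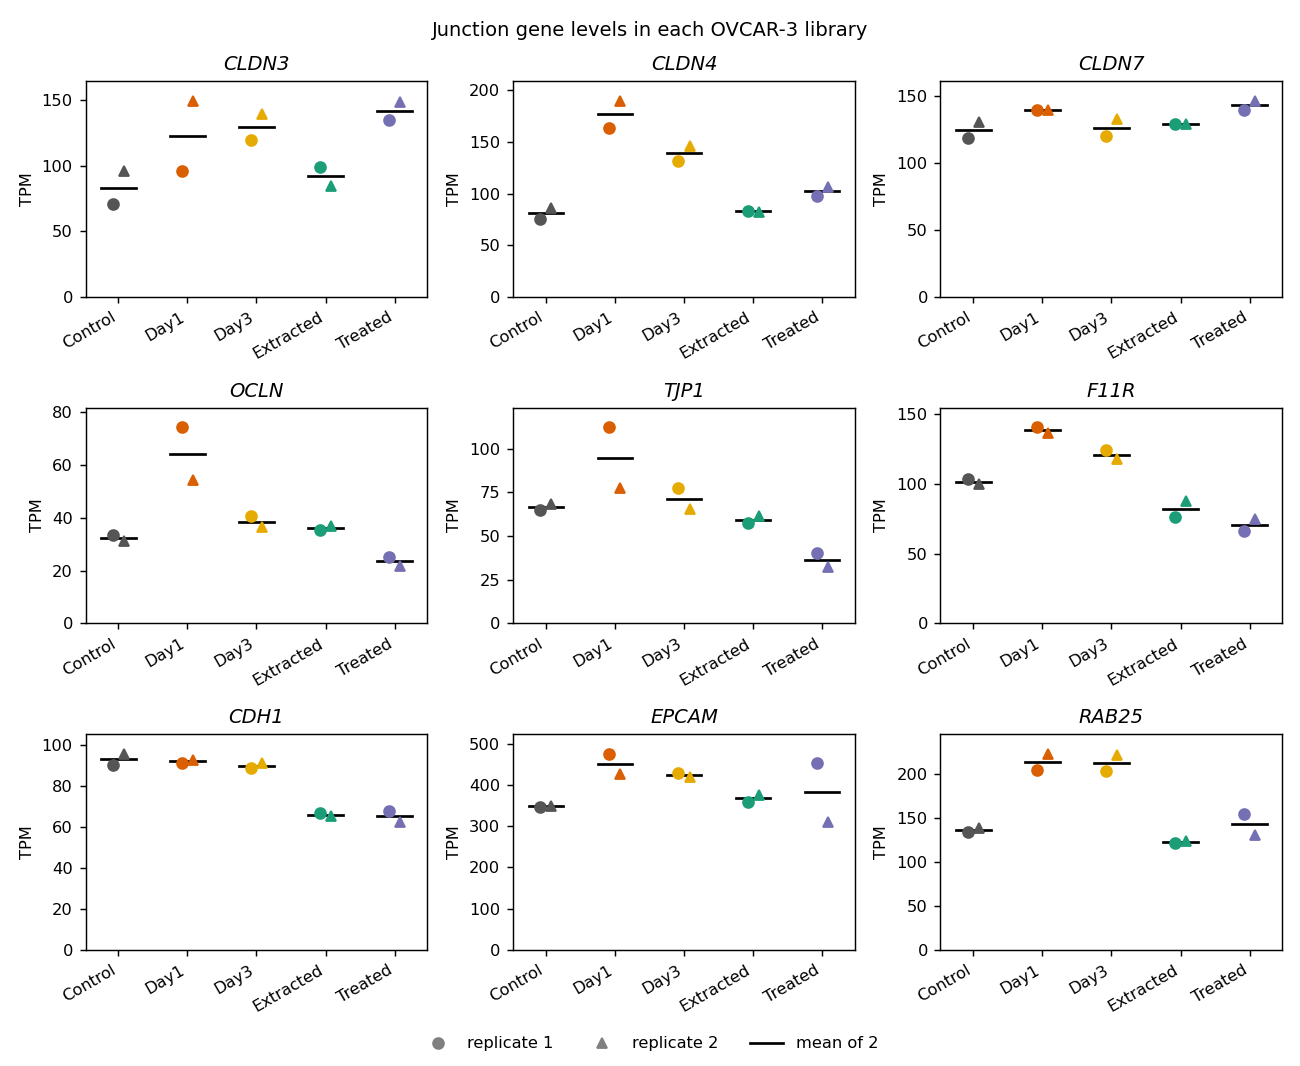
Levels of the 9 junction genes in TPM (vertical axes, starting at 0) in each of the 10 OVCAR-3 libraries, by group, with circles for replicate 1, triangles for replicate 2 and a line for the mean of 2. CLDN4 and RAB25 are high in both gel groups, CDH1 is low in both survivor groups, and CLDN7 lies between 119 and 147 TPM throughout.

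Differences between groups were tested with limma on log2(TPM + 1), in 1 fit of all 10 libraries, with p-values adjusted by the Benjamini-Hochberg method over all 15167 tested genes. A gene is called, and is said to have risen or fallen, at an adjusted p under 0.05. Differences are on that log2 scale with their 95% intervals, and p is the adjusted p of limma throughout. In bulk RNA, a change in the share of cells that carry a transcript and a change in the transcript per cell cannot be told apart.

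After 24 hours in the gel, 4 of the 9 junction genes rose and 0 fell. They were 3 genes of tight-junction membrane proteins, CLDN4, OCLN and F11R, and the GTPase gene RAB25, while CDH1 was not called. Among all tested genes, 14.4% were called higher and 6.28% lower in this comparison. The median difference of the 9 was 0.48, against 0.12 for all tested genes. After 3 days, CLDN4 and RAB25 rose and 0 fell, 2 of 9 beside 5.18% of all genes called higher and 4.64% lower, with a median of 0.25 against 0.06. Day3 against Day1 gave 1 fall, OCLN, and 0 rises, beside 1.69% of all genes called lower and 0.659% higher.

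In the cells that had left the gel and regrown, CDH1 alone was called against Control, and it fell. The share of all genes called lower was 1.13% and the share called higher 0.857%, and these 302 calls became 2 to 19 when a Control or Extracted library was left out. Against Day3, the last state measured inside the gel, 4 of 9 fell in Extracted and 0 rose: RAB25, CLDN4, F11R and CDH1. Here 10.8% of all genes were called lower and 6.3% higher, and the median was -0.44 for the 9 against -0.07 for all. In the cisplatin survivors, TJP1, F11R and CDH1 fell against Control and CLDN3 rose, beside 18.2% of all genes called lower and 6.28% higher. The median of the 9 was 0.06 against -0.15. Treated against Extracted, the comparison of both survivor groups, gave falls of TJP1 and OCLN and 0 rises, beside 8.87% of all genes called lower and 3.24% higher.

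**Figure D2:**
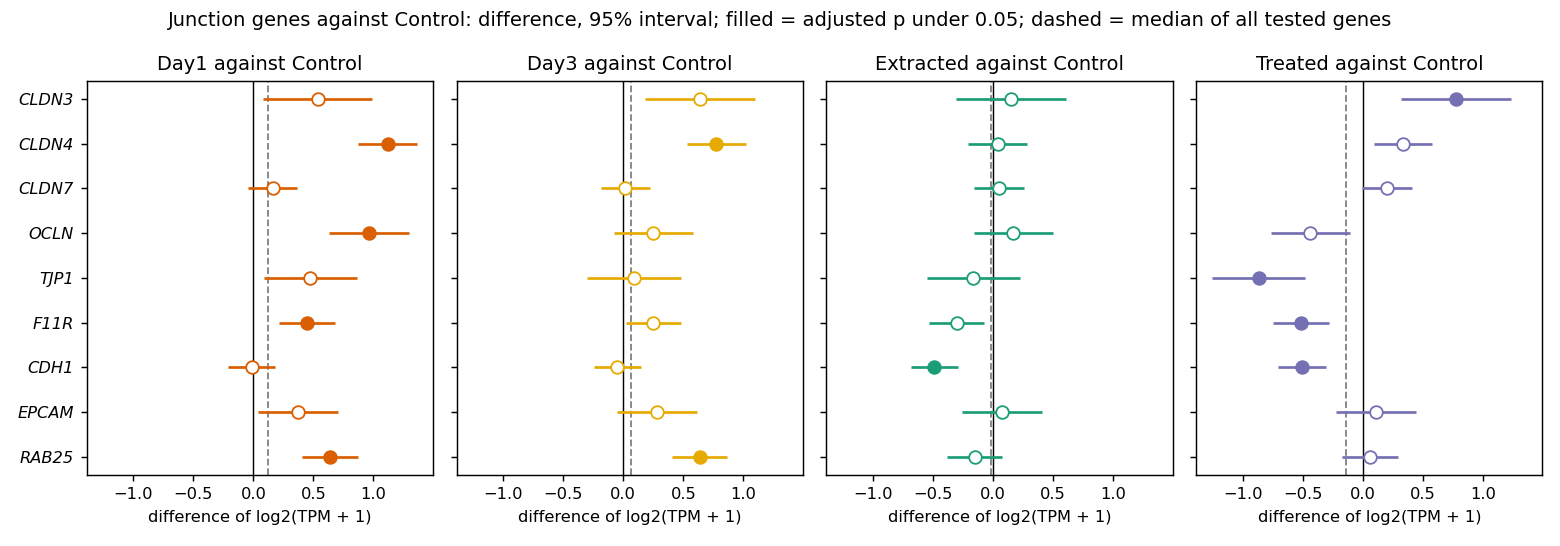
Difference of log2(TPM + 1) from Control (horizontal axes) for each of the 9 junction genes in the 4 other groups, with 95% intervals from limma. Filled points mark an adjusted p under 0.05, and the dashed line marks the median of all tested genes, which lies at 0.12 in Day1 and -0.15 in Treated.

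CLDN4, a claudin of tight epithelia, made the largest rise of the set in the gel. Its level was 75.7 and 86.0 TPM in Control, 164 and 189.8 in Day1, 132 and 146 in Day3, 83.3 and 82.5 in Extracted, and in Treated 98.0 and 106. Both gel groups lay wholly above the other 3, and Extracted lay inside the range of Control. The rise was 1.12 in Day1 (0.87 to 1.36, adjusted p = 0.000279) and 0.77 in Day3 (0.53 to 1.02, adjusted p = 0.00388). From Day3 to Extracted it fell by 0.73 (adjusted p = 0.00217), which left Extracted 0.04 from Control (-0.21 to 0.28, adjusted p = 0.894). These 3 calls were kept under each of the 19 alternative settings. With mitochondrial genes left out and the rest rescaled, the Day1 rise was 0.91 (adjusted p = 0.000914). The Treated value of 0.33 was not called (adjusted p = 0.0515), but it was with the filter at 5 TPM (adjusted p = 0.0435), under 3 of the 4 rescalings tried (adjusted p = 0.0222 to 0.0353), with the replicate block (adjusted p = 0.0305), and without Treated replicate 1, Day1 replicate 1 or Day1 replicate 2.

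CLDN3 lies next to CLDN4 on chromosome 7, at chr7:73768997-73770270 on the minus strand (GRCh38), against chr7:73799542-73832693 on the plus strand for CLDN4. The gap is 29.3 kb, and GENCODE release 29 places no protein-coding gene in it. CLDN3 measured 71.1 and 95.8 TPM in Control, 96.1 and 149.7 in Day1, 119 and 139.6 in Day3, 99.2 and 84.5 in Extracted, and in Treated 135 and 149. Treated and Day3 lay above both Control cultures, whereas the Day1 replicates spread widely and the lower of them was close to Control. CLDN3 rose in Treated by 0.77 (0.32 to 1.23, adjusted p = 0.0228). The call was lost with no filter (adjusted p = 0.0933), without Control replicate 1 (0.56, adjusted p = 0.156) and without Treated replicate 2 (0.70, adjusted p = 0.0972). Differences of 0.53 in Day1 (adjusted p = 0.0922) and 0.64 in Day3 (adjusted p = 0.0799) were not called, although without Day1 replicate 1 the Day1 value became 0.85 (adjusted p = 0.0291). The Day3 value was called without Day1 replicate 1 (adjusted p = 0.0344) or Day1 replicate 2 (adjusted p = 0.0346), and so was CLDN3 in Treated against Extracted, at 0.63 (adjusted p = 0.0324 and 0.0326). Both were called with the replicate block (adjusted p = 0.0497 and 0.0468), and the latter with nuclear protein-coding genes alone (0.74, adjusted p = 0.0375). The ratio of CLDN4 to CLDN3 within a library was 1.07 and 0.898 in Control, 1.70 and 1.27 in Day1, and 0.725 and 0.712 in Treated, above the Control values in Day1 and below them in Treated.

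CLDN7, the claudin that binds EPCAM, varied least. It measured 119 and 131 TPM in Control, 139.6 in both Day1 cultures, 120.1 and 133 in Day3, 129 in both Extracted cultures, and in Treated 139.8 and 147. No comparison was called, and the interval from Control was -0.04 to 0.37 in Day1, -0.19 to 0.22 in Day3, -0.16 to 0.25 in Extracted and -0.01 to 0.40 in Treated. Median-of-ratios scaling gave a call in Treated (0.36, adjusted p = 0.031). CLDN7 (chr17:7259903-7263983, minus strand) overlaps ELP5 on the opposite strand, at 54.6 to 83.6 TPM over the libraries. The strand setting of the counting is not given in the sources used here, so reads of the overlap cannot be assigned with certainty.

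OCLN encodes occludin, a protein of the tight-junction strands that spans the membrane. Its level was 33.3 and 31.1 TPM in Control, 74.4 and 54.3 in Day1, 40.6 and 36.5 in Day3, 35.6 and 37.0 in Extracted, and in Treated 25.3 and 21.8. Day1 was the highest group and Treated the lowest, with neither overlapping any other. The Day1 rise of 0.96 (0.63 to 1.29, adjusted p = 0.00276) was kept under each of the 19 alternatives. It did not last: Day3 lay 0.25 above Control (-0.08 to 0.58, adjusted p = 0.314) and fell by 0.71 from Day1 (-1.04 to -0.38, adjusted p = 0.0407). Treated lay 0.44 below Control without a call (-0.77 to -0.11, adjusted p = 0.056), but was called with the filter at 5 TPM (adjusted p = 0.0434), with mitochondrial genes left out (-0.53, adjusted p = 0.02) and with nuclear protein-coding genes alone (-0.40, adjusted p = 0.0372) and with the replicate block (adjusted p = 0.0337), and also without Treated replicate 1, Day1 replicate 1 or Day1 replicate 2. Against Extracted, OCLN fell in Treated by 0.61 (-0.94 to -0.27, adjusted p = 0.03).

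Both of the smaller OCLN calls depended on single libraries. The fall from Day1 to Day3 was not called without Control, Day3 or Extracted replicate 1 or 2 or without Day1 replicate 1, at -0.79 to -0.49 (adjusted p = 0.0734 to 0.27). It was also lost with no filter (adjusted p = 0.137), without mitochondrial genes (-0.65, adjusted p = 0.0573) and in a fit of both groups alone (adjusted p = 0.212). The Treated to Extracted difference was not called without replicate 1 or 2 of Control, Day3 or Extracted or without Treated replicate 2, at -0.63 to -0.50 (adjusted p = 0.0517 to 0.168), with no filter (adjusted p = 0.0826) or in a fit of both groups alone (adjusted p = 0.0944). OCLN lies at chr5:69492292-69558104 on the plus strand.

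F11R encodes JAM-A, an immunoglobulin-like adhesion protein of the tight junction. It measured 103 and 99.6 TPM in Control, 141 and 136 in Day1, 124 and 118 in Day3, 76.2 and 88.1 in Extracted, and in Treated 66.4 and 75.1. The gel groups lay above Control and the survivor groups below it, with no overlap between Control and any of them. F11R rose in Day1 by 0.45 (0.22 to 0.68, adjusted p = 0.0159), fell from Day3 to Extracted by 0.56 (-0.79 to -0.32, adjusted p = 0.00624) and fell in Treated against Control by 0.52 (-0.75 to -0.29, adjusted p = 0.00693). Its values of 0.25 in Day3 (adjusted p = 0.16) and -0.30 in Extracted (adjusted p = 0.162) against Control were not called, but Day3 was in a fit of both groups alone (adjusted p = 0.0421).

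The Day1 rise of F11R moved with the scaling. It was 0.32 by the median of ratios (adjusted p = 0.0813), 0.23 without mitochondrial genes (adjusted p = 0.148) and 0.24 with nuclear protein-coding genes alone (adjusted p = 0.167), and was also lost without Control replicate 1 (adjusted p = 0.0743), Control replicate 2 (adjusted p = 0.105) or Day1 replicate 1 (adjusted p = 0.0691). The Treated fall was -0.36 by the median of ratios (adjusted p = 0.0547), and was lost without Control replicate 1 (adjusted p = 0.0543) and in a fit of both groups alone (adjusted p = 0.0528). The Extracted fall against Day3 was lost without Day3 replicate 1 (adjusted p = 0.0666) or Extracted replicate 1 (adjusted p = 0.0676). F11R (chr1:160995211-161021348, minus strand) overlaps AL591806.3, a protein-coding annotation on the same strand at 2.60 to 11.8 TPM.

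TJP1 encodes ZO-1, the scaffold under the tight-junction membrane proteins. It measured 64.9 and 68.5 TPM in Control, 112 and 77.2 in Day1, 77.3 and 65.3 in Day3, 57.2 and 61.6 in Extracted, and in Treated 40.4 and 32.2. Treated lay wholly below every other group, and Day1 replicate 1 stood far above its partner. TJP1 fell in Treated by 0.87 against Control (-1.26 to -0.48, adjusted p = 0.00688) and by 0.70 against Extracted (-1.09 to -0.32, adjusted p = 0.0308). The first call was lost only without Control replicate 2 (-0.83, adjusted p = 0.0567). The second was lost without replicate 1 or 2 of Control or Extracted or without Treated replicate 2, at -0.76 to -0.54 (adjusted p = 0.0547 to 0.178), with no filter (adjusted p = 0.1) and in a fit of both groups alone (adjusted p = 0.0941). The Day1 difference of 0.48 was not called (0.09 to 0.86, adjusted p = 0.0793). It was called without Day1 replicate 2 (0.74) or with small-RNA genes left out (0.48, adjusted p = 0.0465). TJP1 (chr15:29699367-29968865, minus strand) holds the processed pseudogene HMGN2P5 on the opposite strand, at 145 to 336 TPM, and the antisense gene AC022613.2 at 0.293 to 1.23 TPM.

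CDH1 encodes E-cadherin, the adhesion protein of the epithelial adherens junction. It measured 90.4 and 95.8 TPM in Control, 91.4 and 92.8 in Day1, 88.9 and 91.1 in Day3, 66.8 and 65.3 in Extracted, and in Treated 67.6 and 62.6. Control and both gel groups overlapped, and both survivor groups lay below all 6 of those libraries and overlapped each other. The difference from Control was -0.01 in Day1 (-0.21 to 0.18, adjusted p = 0.922) and -0.05 in Day3 (-0.25 to 0.15, adjusted p = 0.773), against -0.49 in Extracted (-0.69 to -0.29, adjusted p = 0.0274) and -0.51 in Treated (-0.71 to -0.31, adjusted p = 0.00355). Extracted fell by 0.44 from Day3 (adjusted p = 0.00865). Treated and Extracted differed by -0.02 (-0.22 to 0.18, adjusted p = 0.9).

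The calls of CDH1 in Extracted depended on single libraries, while the size of the difference changed little. Against Control the call was lost without any 1 of the Control, Extracted or Day3 libraries, at -0.53 to -0.45 (adjusted p = 0.0703 to 0.259). Against Day3 it was lost without any 1 of the Day3 or Extracted libraries, at -0.46 to -0.42 (adjusted p = 0.0576 to 0.0812). The Treated fall was lost only in a fit of Treated and Control alone (adjusted p = 0.0502). Under the 4 rescalings it ranged from -0.60 to -0.35, with p at most 0.0106. Rescaling moved the Day1 value to between -0.23 and -0.01 without a call. CDH1 lies at chr16:68737225-68835548 on the plus strand.

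EPCAM, the most abundant of the set, measured 347 and 349.6 TPM in Control, 476 and 427 in Day1, 428 and 418 in Day3, 358 and 377 in Extracted, and in Treated 453 and 310.5. Both gel groups lay above Control, and the Treated replicates stood on either side of it. No comparison was called. The differences from Control were 0.37 in Day1 (0.04 to 0.70, adjusted p = 0.103), 0.28 in Day3 (-0.05 to 0.61, adjusted p = 0.263), 0.07 in Extracted (-0.26 to 0.41, adjusted p = 0.842) and 0.11 in Treated (-0.22 to 0.44, adjusted p = 0.638). Day1 was called with small-RNA genes left out (0.38, adjusted p = 0.022), and in fits of 2 groups alone Day1 (adjusted p = 0.0423) and Day3 (adjusted p = 0.0174) were called. Without Treated replicate 1 or 2, EPCAM was called in Day1 (adjusted p = 0.00595 and 0.00593) and in Day3 (adjusted p = 0.0284 and 0.0283), and without Treated replicate 2 also in Treated, at 0.38 (adjusted p = 0.0183). Treated replicate 2, the lower EPCAM library, is the one in which small-RNA genes held 14.7% of the TPM, and the part of that share in the spread was not tested beyond the rescaling. EPCAM lies at chr2:47345158-47387601 on the plus strand.

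RAB25 followed CLDN4 in the gel. It measured 135 and 139 TPM in Control, 205 and 224 in Day1, 204 and 223 in Day3, 122 and 124 in Extracted, and in Treated 155 and 131. All 4 gel libraries lay above the other 6, and the Day1 and Day3 ranges nearly coincided. RAB25 rose by 0.64 in Day1 (0.41 to 0.87, adjusted p = 0.00346) and by 0.64 in Day3 (0.40 to 0.87, adjusted p = 0.0072), and fell from Day3 to Extracted by 0.79 (-1.02 to -0.56, adjusted p = 0.00127). The Day1 rise and the Extracted fall were kept under each of the 19 alternatives, the rise at 0.43 to 0.70. The Day3 rise was lost without Control replicate 1 (adjusted p = 0.0717), Control replicate 2 (adjusted p = 0.0539) or Day3 replicate 2 (adjusted p = 0.0779). Extracted ended at -0.16 from Control (-0.39 to 0.08, adjusted p = 0.485) and Treated at 0.06 (-0.17 to 0.29, adjusted p = 0.717). Treated against Extracted was called under 3 of the 4 rescalings, at 0.31 to 0.36 (adjusted p = 0.0204 to 0.0301). RAB25 lies at chr1:156061160-156070514 on the plus strand.

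Ratios between members show changes of balance that no common scaling of a library can produce. The ratio of CLDN4 to CDH1 was 0.838 and 0.898 in Control, 1.79 and 2.05 in Day1, 1.48 and 1.60 in Day3, 1.25 and 1.26 in Extracted, and in Treated 1.45 and 1.69. All 8 exposed or recovered libraries lay above both Control libraries. RAB25 to CDH1 gave the same division, with 1.49 and 1.45 in Control and 1.82 to 2.44 in the other 8. CLDN3 to TJP1 was 1.09 and 1.40 in Control, 0.856 and 1.94 in Day1, and 3.35 and 4.62 in Treated. Only the Treated libraries lay above the range of all others, whose highest value was 2.14 in Day3. No test was run on these ratios.

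**Figure D3:**
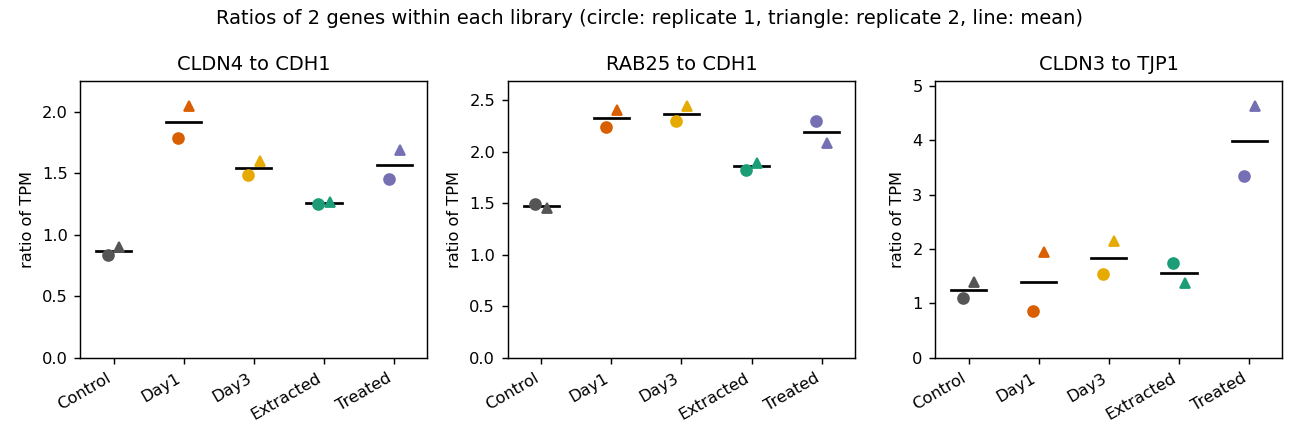
Ratio of the TPM of 2 genes within each library (vertical axes, starting at 0), by group, with circles for replicate 1, triangles for replicate 2 and a line for the mean. Both Control libraries are lowest for CLDN4 to CDH1 and RAB25 to CDH1, and both Treated libraries are highest for CLDN3 to TJP1.

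Across the 10 libraries, the 9 genes did not share 1 pattern, and how their patterns relate to their roles was not tested. Pearson correlations of log2(TPM + 1) are given as a description, over 10 libraries that come in 5 groups of 2 and share their scaling. Of the 36 pairs, CLDN4 and RAB25 had the highest at 0.922, followed by OCLN and TJP1 at 0.920, TJP1 and F11R at 0.868, and F11R and CDH1 at 0.846. The lowest were CLDN3 with TJP1 at -0.363 and CLDN7 with TJP1 at -0.338. The group means spanned 1.40 log2 units in OCLN, 1.34 in TJP1, 1.12 in CLDN4 and 0.96 in F11R, but 0.37 in EPCAM and 0.20 in CLDN7.

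For the 4 genes with the widest span, the most similar genes were sought among 6404 genes that reached 5 TPM in a group and spanned at least 0.5 log2 units. OCLN was most like HRK (r = 0.994), NFE2L2 (0.994) and UBE2D3 (0.993). TJP1 was most like DDX6 (0.993), UBA2 (0.991) and PPP4R3A (0.990). CLDN4 was most like TSC22D1 (0.980), CLDN9 (0.969) and OLMALINC (0.959), and GSK3A (0.981) and ZDHHC5 (0.979) were among the 3 genes most like F11R. NFE2L2 averaged 69.8 TPM in Control, 114 in Day1 and 54.4 in Treated, and CLDN9 3.33 in Control, 6.94 in Day1 and 5.45 in Day3.

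The promoters of the members that changed are shown because CLDN4 with RAB25 and OCLN with TJP1 had the most similar patterns of all pairs of members. Each is the 250 bases before a RefSeq transcript start (GRCh38.p14), written 5′ to 3′ on the strand of the gene in lower case. RefSeq windows matched 6 of the 9 symbols, with 11 starts in all, and CDH1, EPCAM and F11R had no entry. Capitals mark a match, on either strand, to the E-box CACCTG or CAGGTG bound by SNAI and ZEB repressors, the AP-1 site TGACTCA or TGAGTCA, or the CRE TGACGTCA bound by CREB and ATF factors.
CLDN4: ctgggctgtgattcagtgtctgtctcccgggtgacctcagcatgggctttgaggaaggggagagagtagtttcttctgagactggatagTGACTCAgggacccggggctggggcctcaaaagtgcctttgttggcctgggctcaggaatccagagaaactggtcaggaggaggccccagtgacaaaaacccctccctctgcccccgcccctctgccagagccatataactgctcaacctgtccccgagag
RAB25: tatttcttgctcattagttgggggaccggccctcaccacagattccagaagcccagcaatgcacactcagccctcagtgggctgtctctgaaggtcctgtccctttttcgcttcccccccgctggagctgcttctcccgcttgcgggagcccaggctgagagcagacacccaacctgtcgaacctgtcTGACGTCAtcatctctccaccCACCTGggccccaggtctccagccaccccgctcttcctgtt
OCLN: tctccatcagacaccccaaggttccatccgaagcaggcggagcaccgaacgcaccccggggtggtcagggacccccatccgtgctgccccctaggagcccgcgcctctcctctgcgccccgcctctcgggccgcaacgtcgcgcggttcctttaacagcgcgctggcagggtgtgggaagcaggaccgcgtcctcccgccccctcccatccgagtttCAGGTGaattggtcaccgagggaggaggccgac
TJP1: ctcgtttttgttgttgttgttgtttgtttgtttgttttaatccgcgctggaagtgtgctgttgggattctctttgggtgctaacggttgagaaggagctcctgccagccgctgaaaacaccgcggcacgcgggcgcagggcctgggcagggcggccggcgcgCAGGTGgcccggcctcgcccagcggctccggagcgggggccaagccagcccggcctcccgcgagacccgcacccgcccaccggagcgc
CLDN3: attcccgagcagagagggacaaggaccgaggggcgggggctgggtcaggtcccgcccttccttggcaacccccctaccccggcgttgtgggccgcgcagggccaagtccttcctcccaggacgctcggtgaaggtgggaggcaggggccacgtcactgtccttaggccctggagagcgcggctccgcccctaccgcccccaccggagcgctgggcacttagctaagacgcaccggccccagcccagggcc

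The CLDN4 window (chr7:73830746-73830995, plus strand) held an AP-1 match 161 bases before the start. It lies inside the longer CLDN4 gene of GENCODE. The RAB25 window (chr1:156060910-156061159, plus strand) held a CRE match 62 bases and an E-box match 41 bases before the start, and no motif was shared with CLDN4. OCLN (chr5:69492297-69492546, plus strand) and TJP1 (chr15:29969050-29969299, minus strand) each held an E-box, 33 and 88 bases before the start. A second OCLN window also held 1, and the other 3 TJP1 windows held none. The CLDN3 window (chr7:73770271-73770520, minus strand) held none of these letters. One of the 2 CLDN7 windows (chr17:7262479-7262728, minus strand) held 4 E-box matches and a CRE, and the other held none. Among 35116 windows of the same length, 17.5% held the E-box, 4.2% the AP-1 site and 1.65% the CRE. These are matches of letters, and no binding was measured.

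Of the SNAI and ZEB repressors that bind the E-box, SNAI2 was listed at 0 in all 10 libraries and ZEB1 reached at most 0.477 TPM, below the filter. SNAI1 measured 7.47 and 6.81 TPM in Control and 4.89 and 5.10 in Day3, and was called only from Day3 to Extracted, where it rose by 0.53 (adjusted p = 0.0361). GRHL2, an activator of epithelial junction genes, stayed between 15.3 and 22.1 TPM and was called in no comparison. ELF3, an epithelial transcription factor, measured 82.8 and 90.8 TPM in Control, 134 and 126 in Day1, 124 and 125 in Day3, 70.2 and 70.5 in Extracted, and in Treated 90.5 and 99.2. As for CLDN4 and RAB25, the gel libraries of ELF3 lay above all others. ELF3 rose by 0.58 in Day1 (adjusted p = 0.00325) and 0.52 in Day3 (adjusted p = 0.0104) and fell by 0.82 from Day3 to Extracted (adjusted p = 0.00066).

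Of 13 tested epithelial transcription and splicing factors, 6 rose and 1 fell in Day1, beside 14.4% of all genes called higher and 6.28% lower. The rises were KLF4 (1.20), OVOL1 (0.90), GRHL3 (0.83), ELF3, the splicing regulator ESRP1 (0.57) and KLF5 (0.40), and its paralog ESRP2 fell by 0.58. The median was 0.29 against 0.12 for all tested genes. In Day3, GRHL3 (0.71), ELF3 and EHF (0.85) rose and 0 fell, beside 5.18% of all genes called higher and 4.64% lower. In Extracted against Day3, 4 fell and 0 rose: EHF by 1.49, GRHL3 by 1.26, ELF3 and ESRP1 by 0.38. Of all genes, 10.8% were called lower and 6.3% higher in that comparison. In Treated, GRHL1 (-0.52), OVOL2 (-0.55) and ESRP2 (-0.59) fell and 0 rose. That was 23.1% of the 13, close to the 18.2% of all genes called lower. EHF, a relative of ELF3, measured 36.9 and 46.1 TPM in Control, 43.7 and 42.9 in Day1, 77.2 and 72.8 in Day3, and 27.7 and 24.6 in Extracted. EHF was thus highest in Day3, 0.78 above Day1 (adjusted p = 0.0162). CLDN4 had its highest mean in Day1, but its difference of -0.34 in Day3 against Day1 was not called (adjusted p = 0.145).

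The other claudins did not share 1 pattern. Of 10 tested, 3 rose in Day1, beside 14.4% of all genes, and 0 fell: CLDN15 by 1.39, CLDN9 by 0.88 and CLDN12 by 0.43. In Day3, CLDN15 (0.84) and CLDN10 (0.51) rose and CLDN1 fell by 0.84, beside 5.18% of all genes called higher and 4.64% lower. CLDN1, a sealing claudin, measured 153 and 135 TPM in Control, 250.1 and 158 in Day1, 77.8 and 82.2 in Day3, 204 and 237 in Extracted, and in Treated 136 and 121. It was lowest in Day3 and fell by 1.31 from Day1 (adjusted p = 0.0113), and it rose by 1.45 from Day3 to Extracted (adjusted p = 0.00105), while CLDN4 fell between the same groups. CLDN16 rose with it by 1.04. In Treated against Extracted, separate survivor groups, CLDN1 and CLDN16 fell by 0.77 and 0.74. In Treated against Control, CLDN10 rose by 0.58 and CLDND1, a claudin-domain protein, fell by 0.37. Of all genes, 6.28% were called higher and 18.2% lower in that comparison.

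**Figure D4:**
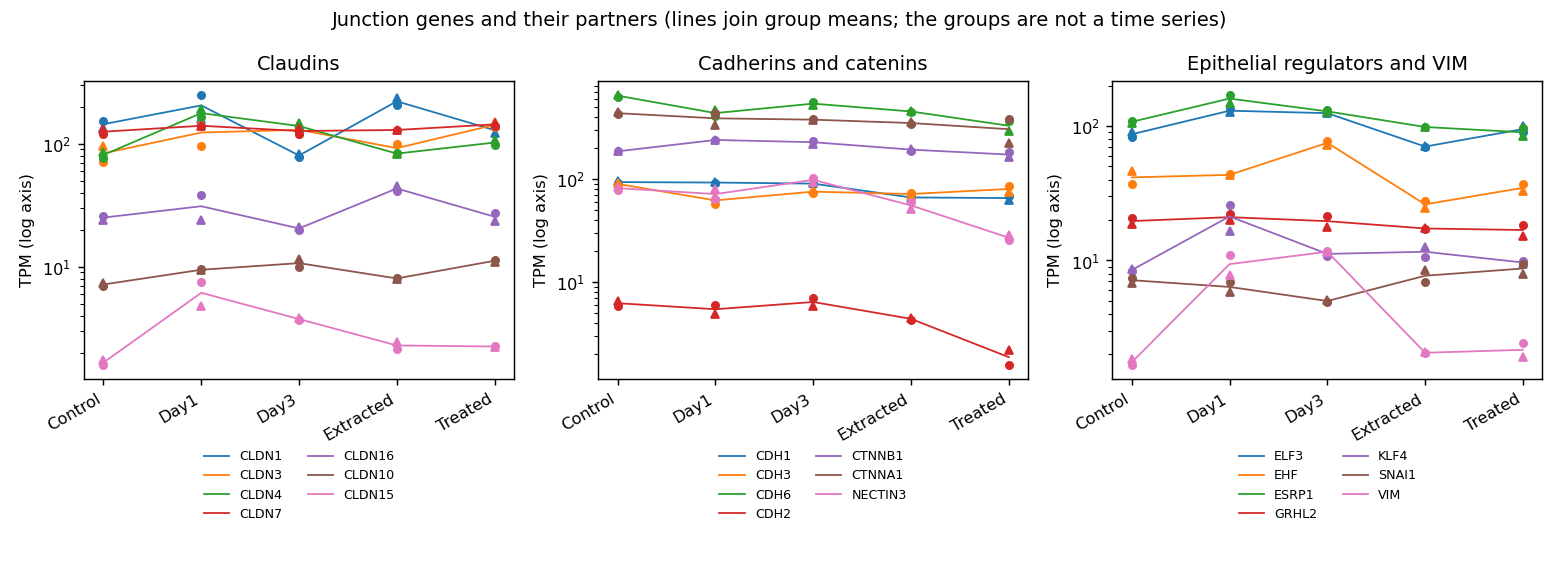
Levels in TPM (vertical log axes) of claudins, of cadherins and catenins, and of epithelial regulators with VIM, in each library by group, with lines that join group means and do not denote a time series. CLDN1 is lowest in Day3, where CLDN4 is high, and NECTIN3 and CDH2 are lowest in Treated.

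Of the other membrane proteins of the tight junction, 0 of 8 were called in Day1 or Day3. The share of all genes called higher was 14.4% in Day1 and 5.18% in Day3. LSR, a protein of the corners between 3 cells, measured 273 and 303 TPM in Control, 276 and 301 in Day1, and 283 and 295 in Day3. In Treated, 4 of the 8 fell: BVES by 1.31, ILDR1 by 0.75, MARVELD3 by 0.51 and LSR by 0.44, with a median of -0.48 against -0.15 for all tested genes, of which 18.2% were called lower. BVES also fell in Extracted, by 1.06, beside 1.13% of all genes called lower. Its levels were low, with means of 3.41 TPM in Control, 1.12 in Extracted and 0.772 in Treated. The MARVELD3 call was lost with no filter, by the median of ratios and in a fit of both groups alone. It was also lost without Control replicate 1, Control replicate 2 or Treated replicate 2. Treated is also the group in which TJP1 and F11R fell.

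Of 20 plaque and polarity genes, ARHGEF2, a nucleotide exchange factor bound at the junction, rose in Day1 by 1.15 and PARD3B by 0.52, and 0 fell. The share of all genes called higher was 14.4%. ARHGEF2 fell back by 1.02 in Day3 (adjusted p = 0.0323), as OCLN did. TJP3, which encodes the ZO-1 paralog ZO-3, measured 15.8 and 17.0 TPM in Control, 28.3 and 24.5 in Day3, 15.7 and 16.7 in Extracted, and in Treated 26.4 and 29.5. It rose by 0.65 in Day3 (adjusted p = 0.0155) and by 0.74 in Treated (adjusted p = 0.0037), where TJP1 fell. AMOTL2 was the other gene of the list called in Day3, where it fell by 0.73 (adjusted p = 0.00856). The Day3 calls of TJP3 and AMOTL2 were each lost when any Control or Day3 library was left out. From Day3 to Extracted, AMOTL2 rose by 0.88 (adjusted p = 0.00186). The shares of all genes called in Day3 were 5.18% higher and 4.64% lower. In Treated, 4 of the 20 fell: PARD6B (-0.52), PARD6G (-0.73), MPP5 (-0.47) and MAGI3 (-0.55). That share is close to the 18.2% of all genes called lower.

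Of 3 catenins that anchor E-cadherin, CTNNB1, CTNNA1 and CTNND1, 1 was called in Day1. CTNNB1 (beta-catenin) measured 185 TPM in both Control cultures and 241 and 237 in Day1, a rise of 0.37 (adjusted p = 0.0199). The call was lost without mitochondrial genes and with nuclear protein-coding genes alone. It was also lost without Control replicate 1, Control replicate 2 or Day1 replicate 1. CTNNA1 and CTNND1 were called in no comparison, although CTNNA1 averaged 434 TPM in Control and 304 in Treated, a difference of -0.56 (-1.03 to -0.10, adjusted p = 0.0739). Of 17 adherens-junction partners, 3 rose in Day1, NECTIN4 (0.69), LIMA1 (0.65) and CTNNB1, and 5 fell, NECTIN1 (-0.71), CDH6 (-0.57), CDH3 (-0.53), CDH24 (-0.41) and SHROOM3 (-0.40). The shares of all genes called in Day1 were 14.4% higher and 6.28% lower. CDH6 (K-cadherin) was the most abundant cadherin measured, at 628 and 659 TPM in Control, 405 and 466 in Day1, and 363 and 294 in Treated. CDH3 (P-cadherin) went from 87.2 and 91.5 TPM to 57.3 and 66.3 in Day1, where CDH1 differed by -0.01. In Day3, NECTIN4 rose (adjusted p = 0.0491) and CDH24, NECTIN1, VCL and SHROOM3 fell, VCL by 0.66 (adjusted p = 0.0192). The NECTIN4 calls of Day1 and Day3 were lost by the median of ratios, without mitochondrial genes and with nuclear protein-coding genes alone. They were also lost with no filter and in fits of 2 groups alone. The VCL call was lost with no filter and when any Control or Day3 library was left out. The shares of all genes called in Day3 were 5.18% higher and 4.64% lower.

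In Treated, 5 of the 17 adherens partners fell and 0 rose, beside 18.2% of all genes called lower and 6.28% higher. NECTIN3, a nectin that pairs with other nectins across the cell border, fell from 78.7 and 83.9 to 25.2 and 28.4 TPM, by 1.57 (adjusted p = 8.23e-05). CDH2 (N-cadherin) fell from 5.81 and 6.58 to 1.54 and 2.17 TPM, by 1.34 (adjusted p = 0.000689). NECTIN1 fell by 1.01, CDH6 by 0.98 and SHROOM3 by 0.66. CDH1 and CDH2, often set against each other as epithelial and mesenchymal cadherins, therefore fell in the same group. VIM, the mesenchymal filament vimentin, measured 1.66 and 1.84 TPM in Control, 9.40 ± 2.28 in Day1, 11.7 and 11.5 in Day3, 2.04 and 2.08 in Extracted, and in Treated 2.42 and 1.91. It rose by 1.90 in Day1 and 2.20 in Day3 and was not called in the survivor groups, where CDH1 fell.

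Desmosome genes gave 4 rises and 1 fall of 10 in Day1: PERP (0.76), DSC2 (0.67), DSC3 (0.63) and DSG2 (0.40) rose and EVPL fell by 0.64, beside 14.4% of all genes called higher and 6.28% lower. From Day3 to Extracted, DSC3 fell by 1.26, DSC2 by 0.99, PERP by 0.40 and DSG2 by 0.33, and PKP3 rose by 0.52. The shares of all genes called were 10.8% lower and 6.3% higher. DSC2 measured 45.3 and 51.0 TPM in Control, 72.1 and 82.2 in Day1, 72.9 and 69.1 in Day3, and 36.7 and 34.0 in Extracted. In Treated, DSP (-0.73), DSC3 (-0.72), PKP2 (-0.67) and DSC2 (-0.57) fell, 4 of 10 beside 18.2% of all genes, and 0 rose.

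Of 10 surface and protease genes linked to EPCAM, CD44 (1.27), ADAM17 (0.73) and PRSS8 (0.57) rose in Day1, beside 14.4% of all genes, and 0 fell. ADAM17 is a protease that can cut EPCAM, and it measured 26.1 and 26.4 TPM in Control and 50.5 and 38.4 in Day1. CD44, an adhesion receptor, measured 11.7 and 10.6 TPM in Control, 26.7 and 41.3 in Extracted, and in Treated 85.0 and 73.4, a rise of 2.72 (adjusted p = 6.23e-05). In Treated, CD44 and CD9 (0.55) rose and SPINT2 (-0.40), ST14 (-0.36) and PSEN2 (-0.70) fell. The shares of all genes called were 6.28% higher and 18.2% lower. Of 12 relatives and effectors of RAB25, 0 were called in Day1 or Day3, beside 14.4% of all genes called higher in Day1 and 5.18% in Day3. Whether they differ from RAB25 was not tested. RAB10 averaged 171 TPM in Control and 257 in Day1, a difference of 0.57 (0.15 to 0.99, adjusted p = 0.0558), against 0.64 for RAB25. RAB11A, the closest relative listed, measured 307 and 302 TPM in Control and 379 and 372 in Day1, a difference of 0.30 (adjusted p = 0.0905). The ratio of RAB25 to RAB11A was 0.439 and 0.460 in Control, 0.540 to 0.646 in the gel libraries, and 0.371 and 0.367 in Extracted. In Treated, 2 of the 12 fell, RAB11FIP4 by 0.78 and MYO5B by 0.46, beside 18.2% of all genes called lower.

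Of 8 tested repressor and mesenchymal genes, VIM and S100A4 (0.99) rose in Day1 and FN1 fell by 1.02. The shares of all genes called in Day1 were 14.4% higher and 6.28% lower. In Treated, MMP2 (1.64), S100A4 (1.54) and TWIST1 (0.71) rose and TCF4 fell by 0.81, beside 6.28% of all genes called higher and 18.2% lower. In Extracted, MMP2 rose by 1.33, and TCF4 and FN1 fell by 1.33 and 1.30, beside 0.857% of all genes called higher and 1.13% lower. Leaving out 1 library or changing 1 setting ended many of the calls of partner genes. Counting the other settings that gave a value and the libraries of the compared groups left out, 9 of the 18 named by rule were kept in Day1: CLDN15, ARHGEF2, PERP, CD44, KLF4, OVOL1, ELF3, VIM and FN1. In Treated, 8 of 18 were kept: NECTIN3, CDH2, DSP, DSC3, TJP3, CD44, MMP2 and S100A4. From Day3 to Extracted 14 of 18 were kept, but in Day3 only VIM and FN1 of 14, in Extracted against Control 0 of 5, and in Day3 against Day1 0 of 6. In Treated against Extracted, FN1 and S100A4 of 13 were kept.

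**Figure D5:**
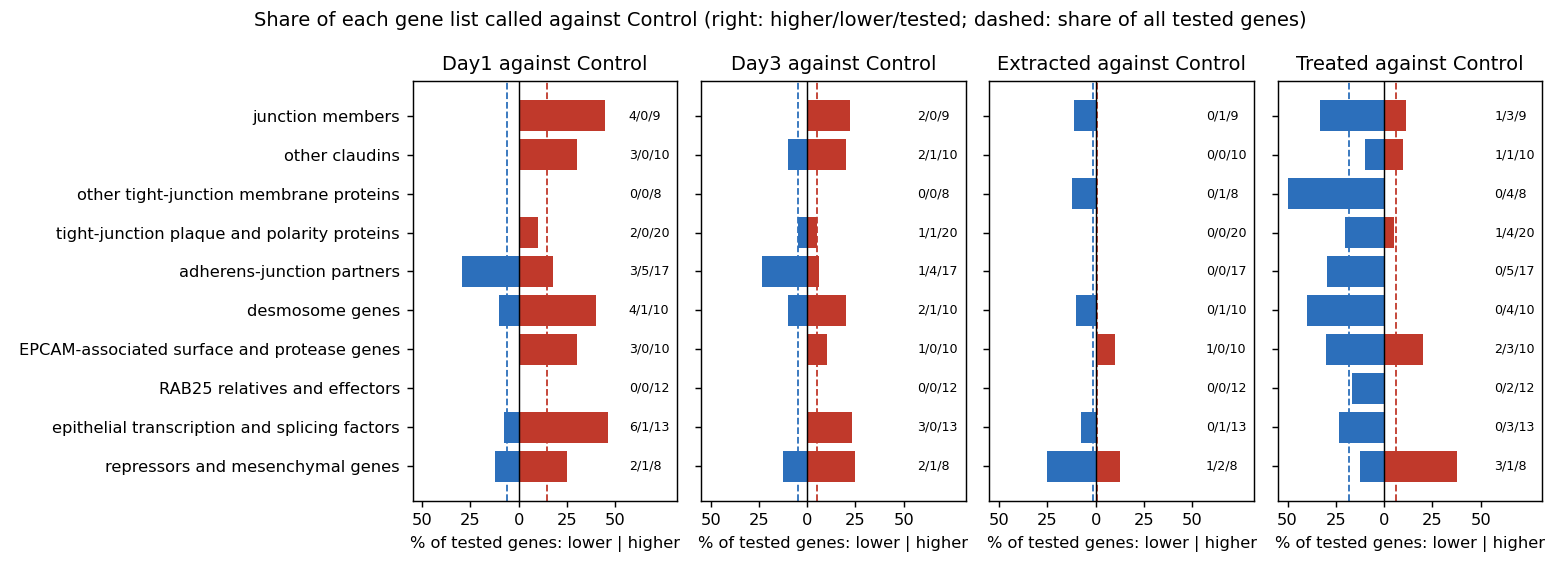
Percent of the tested genes of each list called lower (left of 0, blue) or higher (right of 0, red) against Control, with the counts of higher, lower and tested genes at the right of each panel. Dashed lines mark the share of all tested genes called, 14.4% higher in Day1 and 18.2% lower in Treated.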

How the data were processed

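The authors deposited 1 table of TPM per gene for the 10 libraries. Per the submitters' processing notes, Trimmomatic, STAR, Cufflinks and GRCh38 were used. Their versions, the annotation release and the strand setting were not given in the sources used here. Without counts no counting interval can be computed, and a value of exactly 0 can be a failed estimate. After 349 blank lines were dropped, TPM of 91 repeated identifiers among 58313 entries were summed, which left 58222 genes. GENCODE release 29, used for positions, held 57959 of them.

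A gene entered the tests if 2 or more libraries reached 1 TPM, which 15167 did. The model was limma (version 3.58.1, R version 4.3.3) fitted to log2(TPM + 1), with a mean for each group, eBayes with trend, and residual df of 5. Tests were two-sided, over 7 comparisons. The script was tested on simulated data. The labels call the replicates biological. The alternatives changed the pseudocount to 0.1 and the filter to none or to 5 TPM. Others rescaled by the median of ratios, without mitochondrial genes or to nuclear protein-coding genes, fitted the compared groups alone, or used the replicate number as a block. Each library was also left out in turn, with its partner assumed to vary like the other groups. Rescaling without small-RNA genes was added after their share had been seen.

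The members and the 9 partner lists were chosen with earlier results of these data known. By rule, the text names each member, the 2 called genes with the largest change in each list (with a mean of 5 TPM in a group), or the most abundant where 0 were called, and RAB11A, CTNNB1, CTNNA1, CTNND1, CDH2, CDH3, VIM, SNAI2, ZEB1, GRHL2, ESRP1 and ELF3. Other genes of the lists were named after their values were seen, to account for each count. Some genes of the lists and of the rule are not reported here, and list counts leave them out. Promoter windows are from RefSeq. Tables and plots were made in Python 3.11.15 with Matplotlib 3.10.9, pandas 2.3.3 and NumPy 2.4.6.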

Additional observations from a re-analysis of the deposited data

Results flagged for a closer look

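For 3 results, the change from Control differed between groups by a test of the difference itself, the limma comparison of both groups. OCLN was called higher in Day1 but not in Day3, and its change from Control was smaller by 0.71 after 3 days than after 24 hours in the gel (a difference of -0.71, adjusted p = 0.0407). OCLN differed from Control by -0.44 in the cisplatin survivors and by 0.17 in the gel survivors (-0.16 to 0.50), neither called. The difference between these groups was -0.61 (adjusted p = 0.03). For TJP1 the same pair of groups gave -0.87 and -0.17, a difference of -0.70 (adjusted p = 0.0308). All 3 calls were lost when single libraries were left out. Groups of 2 libraries allow no check for a deviating sample.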

How the results depend on the processing

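No member that was called changed direction under any of the 19 alternatives. The counts of junction genes called moved as follows. In a fit of the compared groups alone they were 4 in Day3 against Control, 2 in Treated against Control, and 0 in Day3 against Day1 and in Treated against Extracted. Calls over all genes in that fit were 2585, 1645, 5 and 129 in this order, against 1489, 3715, 356 and 1836 in the main fit. With no filter, Day3 against Day1 and Treated against Extracted gave 0 junction genes as well, beside 89 and 1018 calls over all genes. Day3 against Day1 gave 0 without mitochondrial genes, beside 256 over all genes. Treated against Extracted gave 5 with nuclear protein-coding genes alone, 3 higher and 2 lower, beside 942 higher and 1076 lower over all genes. With each library left out, the counts ranged from 3 to 5 in Day1, 1 to 3 in Day3, 0 to 1 in Extracted, 2 to 6 in Treated, 0 to 1 in Day3 against Day1, 2 to 4 in Extracted against Day3 and 0 to 3 in Treated against Extracted. The cause was not tested.

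The labels name no pairing of the samples. Deviations of same-numbered libraries correlated at -0.0224 to 0.0874 over 10 pairs of groups. Such a correlation cannot show whether same-numbered cultures were handled together. With the replicate block the members gave 4 rises in Day1, 3 in Day3, 2 rises and 4 falls in Treated, 1 fall in Extracted and in Day3 against Day1, 4 falls in Extracted against Day3, and 1 rise and 2 falls in Treated against Extracted. That fit called, over all genes, 2244 higher and 955 lower in Day1, 740 and 669 in Day3, and 945 and 2768 in Treated. It called 106 and 137 in Extracted and 89 and 251 in Day3 against Day1. For Extracted against Day3 it gave 954 and 1606, and for Treated against Extracted 458 and 1317.

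Over all genes, scaling moved the split of calls. Day1 gave 2180 higher and 952 lower as deposited, 1632 and 1683 by the median of ratios, 1037 and 2014 with nuclear protein-coding genes and 730 and 1811 without mitochondrial genes. Day3 gave 786 and 703, against 832 and 1138, 458 and 1449, and 290 and 1181 in that order. Treated gave 953 and 2762, against 1853 and 1777 by the median of ratios, 1534 and 2061 without small-RNA genes, 1320 and 3029 with nuclear protein-coding genes and 823 and 4137 without mitochondrial genes. Extracted against Control gave 130 and 172, against 241 and 791 with nuclear protein-coding genes and 114 and 458 without mitochondrial genes. By the median of ratios, Day3 against Day1 gave 220 and 337 in place of 100 and 256, Extracted against Day3 1617 and 1514 in place of 955 and 1644, and Treated against Extracted 925 and 785 in place of 491 and 1345. With each library left out, total calls over all genes ranged from 965 to 4106 in Day1 (3132 with all), 216 to 2254 in Day3 (1489), 2 to 654 in Extracted (302), 1315 to 4183 in Treated (3715), 12 to 837 in Day3 against Day1 (356), 852 to 3206 in Extracted against Day3 (2599) and 166 to 3143 in Treated against Extracted (1836). Of 630 member values with a library left out, 41 lost a call and 17 gained one, and of 567 under other settings 14 lost and 24 gained one. Among other named genes, 216 of 1600 and 98 of 1438 lost a call.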
